A study of Mus musculus with 3 samples.

Results

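Tlx1, Nkx2-3, Nkx2-5, Nkx3-2 and Madcam1 are genes of spleen patterning and of lymphocyte homing to the spleen. They were chosen by name, as every probe that the platform annotation assigns to 1 of these 5 symbols. This gave 6 probes of the 16281 in the table. Madcam1 (probe 12659), Tlx1 (probe 6718), Nkx2-3 (probe 8174) and Nkx3-2 (probe 12629) had 1 probe each, and Nkx2-5 had 2 (probes 1990 and 16591). A ratio on all 3 arrays was present for 5 of the 6 probes, 1 for each gene.

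Each of the 3 arrays was a two-colour oligonucleotide array that set mouse spleen total RNA, in the green dye Cyanine-3, against mouse liver total RNA, in the red dye Cyanine-5. Both RNAs were bought from Clontech, and cRNA was made with a single round of amplification. The labels name the same product for each tissue on every array and give no strain, age, sex or number of animals. They do not say which step was repeated. SDs and p-values here therefore measure how far 3 arrays of 1 RNA pair differed, possibly for technical reasons only, and say nothing of differences among animals. Liver was in the red dye on every array, and a dye effect and a tissue difference cannot be told apart.

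Tlx1 (also called Hox11), Nkx2-3, Nkx2-5 and Nkx3-2 (also called Bapx1) encode homeobox transcription factors of the embryonic mesenchyme from which the spleen forms. Mice without Tlx1 or Nkx3-2 lack a spleen, and mice without Nkx2-3 have a small or missing spleen with disordered lymphoid compartments. Nkx2-5 is best known as a cardiac factor and is also active in the spleen rudiment. Madcam1 encodes an adhesion molecule, found on endothelium of gut and its lymphoid tissue and on cells lining the marginal sinus of the spleen. It is bound by the integrin of the chains encoded by Itga4 and Itgb7 on lymphocytes, and its expression in spleen and gut depends on Nkx2-3. Signals of lymphotoxin and tumour necrosis factor through NF-kappaB also induce it.

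The promoter of Madcam1 is shown because this gene carried the large difference described below, and that of Nkx2-3 because its product is a known regulator of Madcam1. Each run is the 250 bases before the annotated start, on the gene's strand, from RefSeq on GRCm38.p6. It lies at chr10:79664309-79664558 (plus strand) for Madcam1 and at chr19:43612075-43612324 (plus strand) for Nkx2-3. Capitals mark matches to GGGA followed by any 4 bases and CC, a simplified NF-kappaB pattern, or to AAGTG, the core recognised by NKX2 factors, on either strand.
Madcam1: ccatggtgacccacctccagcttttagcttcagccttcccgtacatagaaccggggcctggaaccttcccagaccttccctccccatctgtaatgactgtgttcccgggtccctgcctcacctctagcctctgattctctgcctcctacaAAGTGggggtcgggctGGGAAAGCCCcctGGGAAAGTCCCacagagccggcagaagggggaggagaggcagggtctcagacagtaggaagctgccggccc
Nkx2-3: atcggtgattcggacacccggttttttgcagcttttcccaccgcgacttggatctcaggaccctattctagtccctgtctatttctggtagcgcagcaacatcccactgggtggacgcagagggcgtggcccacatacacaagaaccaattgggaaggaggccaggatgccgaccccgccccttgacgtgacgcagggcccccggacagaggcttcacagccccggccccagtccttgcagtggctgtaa

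Madcam1 had 3 matches to the NF-kappaB pattern at -84 to -75, -71 to -62 and -70 to -61, counted from the start. The last pair overlap on opposite strands. It had 1 match to AAGTG, at -100 to -96. Nkx3-2 also had 3 matches to the first pattern and 1 to the second, at other positions, while Nkx2-3, Nkx2-5 and Tlx1 had none of either. The longer NKX2 pattern TNAAGTG had no match in any of the 5 promoters. Among 32851 annotated RefSeq promoters of this length, 17.6% held the NF-kappaB pattern at least once and 3.22% held 2 or more matches. AAGTG was found in 40.7% and TNAAGTG in 10.1%. These are matches of letters and do not show binding.

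The values are log2 ratios of the 2 channels, read as liver over spleen. The labels do not state this direction, and it was taken as likely from tissue genes. The liver plasma protein gene Ahsg read 4.04, 3.45 and 3.80 on arrays 1, 2 and 3, and the hepatocyte fatty acid binding protein gene Fabp1 read 4.56, 4.92 and 4.12 on the probe measured on every array. Toward the other side, Cd74, the invariant chain gene of antigen-presenting cells, read -1.87, -1.79 and -1.80, and Cd79b, of the B-cell receptor, read -1.38, -1.60 and -1.16. Of 7 measured leukocyte genes, 5 passed toward spleen, while Cd3e at 0.13 ± 0.09 and Ms4a1 at 0.05 ± 0.29 (mean ± SD, n = 3 arrays), did not pass the test. That Ms4a1 value is from the probe measured on every array. Another of its probes read -1.46 and -3.87 on arrays 1 and 2, and another read -4.51 on array 2, where these were measured. An exact 0 in the table was taken as no measurement, since abundant liver transcripts such as Apoa1 and Ttr are listed at 0. The 3 arrays correlated with Pearson's r of 0.933 to 0.948 over 14122 probes, which describes the arrays and is no test. No channel intensity was used, so for a ratio near 0 an equal level in both tissues and a signal near background in both channels cannot be told apart. In whole-tissue RNA, fewer cells of a type and less RNA per cell cannot be told apart either.

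Madcam1 was higher in the liver RNA, and none of the 4 homeobox genes reached a 2-fold mean difference. Of the 5 measured probes, 1 passed limma's test toward liver and 1 toward spleen. A probe passed at a Benjamini-Hochberg adjusted p under 0.05 over all 14122 probes. Of all probes, 50.2% passed, 23.5% toward liver and 26.7% toward spleen, so a count of 2 in 5 is near the background. At 2-fold or more, 8.85% of probes passed toward liver, with Madcam1 among them, and 9.13% toward spleen.

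**Figure D1:**
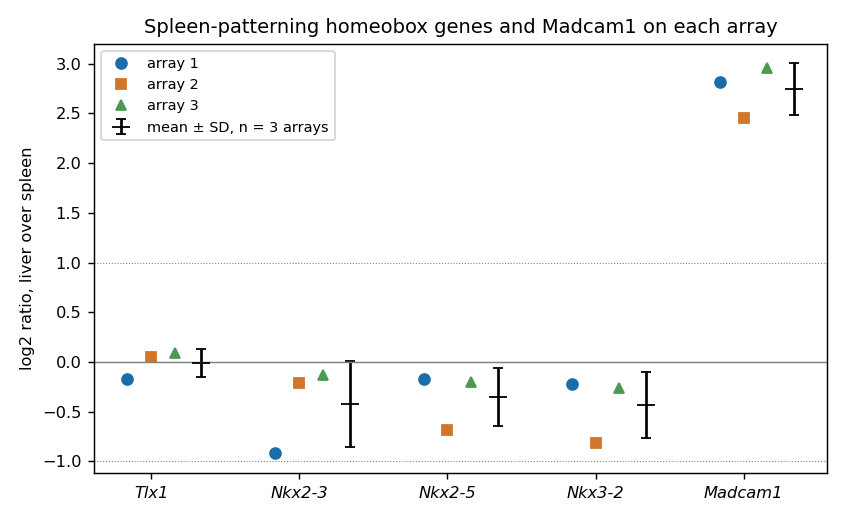
Log2 ratio of liver over spleen (y axis) for the measured probe of each gene (x axis). Coloured symbols are the 3 arrays, black marks are the mean with its SD, and dotted lines mark a 2-fold ratio. Madcam1 lies between 2.46 and 2.96 on the 3 arrays, and all homeobox values lie between -0.92 and 0.10.

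Tlx1, which the embryo needs to form a spleen, read -0.17, 0.05 and 0.10 on arrays 1, 2 and 3. The arrays fell on both sides of 0. The mean was -0.01 ± 0.14 (SD, n = 3 arrays) and did not pass the test (limma adjusted p = 0.939). The 95% interval from limma ran from -0.24 to 0.22, and it describes the measured ratio of this probe only.

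Nkx2-3 read -0.92, -0.22 and -0.13, all on the spleen side, with array 1 well below the others. The mean was -0.42 ± 0.43 and did not pass (limma adjusted p = 0.0895). Its SD was larger than that of 92.9% of the probes. The 95% interval ran from -0.85 to 0.01, so that a measured ratio of up to 1.81-fold toward spleen lay inside it. Without array 1 the mean was -0.18 (limma adjusted p = 0.291).

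Nkx2-5 read -0.17, -0.69 and -0.20 on its measured probe, again all on the spleen side, with array 2 the lowest. The mean was -0.35 ± 0.29 and did not pass (limma adjusted p = 0.0689). Its 95% interval ran from -0.67 to -0.03, before any adjustment for the number of probes. Without array 2 the mean was -0.18 (limma adjusted p = 0.231). The other Nkx2-5 probe was listed at 0 on every array and gave no ratio, so the measured probe had no second probe to be set against.

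Nkx3-2 read -0.22, -0.81 and -0.27, also all below 0 and also lowest on array 2. The mean was -0.43 ± 0.33, a 1.35-fold ratio toward spleen, and it passed narrowly (limma adjusted p = 0.0492). In this fit Nkx3-2 did not pass with any 1 array left out, though the mean moved nearer to 0 only without array 2. Without array 1 the mean was -0.54 (limma adjusted p = 0.0531), without array 2 it was -0.24 (limma adjusted p = 0.143) and without array 3 it was -0.51 (limma adjusted p = 0.0676). Its SD was larger than that of 85.5% of the probes. The gene shares its locus with the RefSeq gene Gm46910, and signal from the overlap could not be separated.

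The 3 NKX genes were below 0 on every array, as were 35.9% of all probes. Array 2 held the lowest value of Nkx2-5 and Nkx3-2, and 33.5% of all probes were also lowest there. Nkx2-3 was lowest on array 1. The mean of Nkx3-2 was lower than that of 77.4% of the probes, that of Nkx2-3 lower than 77.1% and that of Nkx2-5 lower than 74.2%. Tlx1 stood near the middle, with 52.9% of the probes above it. The order of the means was Tlx1, Nkx2-5, Nkx2-3 and Nkx3-2 from higher to lower, and the ranges over the arrays overlapped between all neighbours in this order.

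Madcam1 read 2.81, 2.46 and 2.96 on arrays 1, 2 and 3, well above 0 on every array and clear of all homeobox values. The mean was 2.74 ± 0.26, a 6.69-fold ratio toward liver, and passed the test (limma adjusted p = 4.16e-05). The 95% interval in folds ran from 5.43 to 8.24. Of the 14122 probes, 337 (2.39%) had a higher mean. By array it stood above 97.6%, 96.7% and 98.4% of the probes. Leaving out 1 array at a time gave means of 2.64 to 2.89, and all passed.

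**Figure D2:**
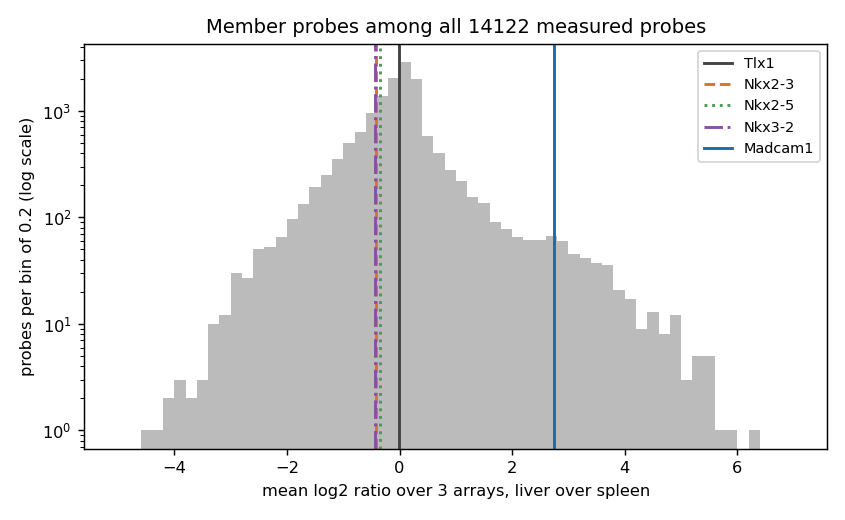
Histogram of the mean log2 ratio, liver over spleen (x axis), of the 14122 probes measured on all arrays, with the number of probes per bin on a log scale (y axis). Vertical lines mark the 5 measured member probes. The homeobox lines fall in the dense centre between -0.43 and -0.01, and Madcam1 at 2.74 falls in the upper tail.

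Madcam1 rests on 1 probe, whose sequence was not used here, so whether it also detects other transcripts was not tested. For scale, 2052 other genes had exactly 2 probes measured on all arrays, and the means of the 2 probes differed by a median of 0.32. The difference within the pair passed limma's test for 735 genes (35.8%), and without array 3 for 432. In 38 of the pairs the higher probe lay within 0.5 of the Madcam1 mean. The other probe of the pair was also 2-fold or more toward liver in 14 of them (36.8%), within 2-fold of equal in 22, and 2-fold or more toward spleen in 2. These pairs were picked by their higher probe, so the counts describe the platform and are no test of Madcam1.

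**Figure D3:**
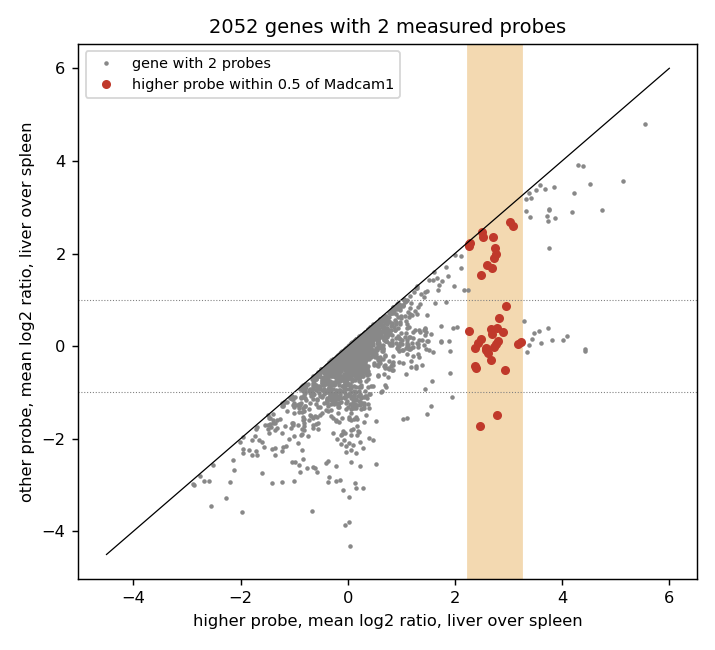
Mean log2 ratio, liver over spleen, of the higher probe (x axis) and of the other probe (y axis) for the 2052 genes with 2 measured probes. The shaded band is within 0.5 of the Madcam1 mean, dotted lines mark 2-fold, and the diagonal marks equal values. Of the 38 red points in the band, 14 lie above the upper dotted line and 22 between the dotted lines.

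The probes most like Madcam1, by Euclidean distance over the 3 log2 ratios, were those of Ptprd, Sln and Asic5. Ptprd, a receptor-type tyrosine phosphatase gene, read 2.90, 2.47 and 2.96 at a distance of 0.09. Sln, the sarcolipin gene of muscle, read 2.89, 2.58 and 2.95 at 0.14. Asic5, an ion channel gene, read 2.78, 2.50 and 2.78 at 0.18. In all, 55 named probes of other genes lay within a distance of 0.5. The 3 arrays of 1 RNA pair give no pattern across tissues, so this likeness means only a similar ratio.

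The nearest measured genes on either side of Madcam1 on chromosome 10 had means nearer to 0. Tpgs1, the next protein-coding gene after it in RefSeq, averaged 0.26 ± 0.18 and did not pass (limma adjusted p = 0.0668). Mier2, the nearest measured gene before Madcam1 and 5 protein-coding genes away, averaged 0.59 ± 0.22 (limma adjusted p = 0.00633). Beside Nkx2-3 on chromosome 19, Got1, the cytosolic aspartate aminotransferase gene, averaged 2.51 ± 0.25 toward liver. Lbx1, a homeobox gene next to Tlx1 on the same chromosome, averaged -0.10 ± 0.21 and did not pass (limma adjusted p = 0.449). Rab28, next to Nkx3-2 on chromosome 5, averaged -0.89 ± 0.06 toward spleen (limma adjusted p = 0.00036), while Bod1l, on the other side, averaged -0.17 ± 0.31 and did not pass (limma adjusted p = 0.325). The nearest measured genes on either side of Nkx2-5, Atp6v0e and Phf1, averaged -0.21 ± 0.14 and -0.13 ± 0.17, and neither passed. Mrpl43, 6 genes before Tlx1, averaged 0.55 ± 0.07 and Cutc, 4 genes after Nkx2-3, averaged 0.62 ± 0.03, both toward liver.

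For the lists below, probes of a gene measured on all arrays were averaged, and limma was run over the resulting 9803 genes, of which 52.8% passed, 25.3% toward liver and 27.4% toward spleen. The median of all genes was 0.02. In this fit Madcam1 passed (limma adjusted p = 3.29e-05), Nkx3-2 again passed narrowly (limma adjusted p = 0.0446), and Nkx2-3 (limma adjusted p = 0.084), Nkx2-5 (limma adjusted p = 0.0627) and Tlx1 (limma adjusted p = 0.935) did not.

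The other regulators of splenic mesenchyme also lay close to 0. Besides the 4 homeobox members, 17 genes of this list were measured. Of these, 3 passed toward spleen, 2 toward liver and 12 did not pass. Their median was 0.01 and 15 of the 17 lay within 0.5 of 0, as was common among all genes. Toward spleen, the homeobox cofactor gene Meis1 averaged -0.71 ± 0.46, the nuclear receptor gene Nr2f2 -0.55 ± 0.24 and Tcf21, a basic helix-loop-helix factor gene needed for spleen formation, -0.49 ± 0.05. Toward liver, the growth factor genes Fgf9 and Fgf10 averaged 0.31 ± 0.09 and 0.27 ± 0.09. Neither growth factor gene passed with any 1 array left out.

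Close relatives of the members lay on both sides of 0. Of 11 other measured genes of the Nkx and Tlx families, 2 passed toward liver, 1 toward spleen and 8 did not pass, with a median of 0.09 and a range of -0.86 to 0.38. Tlx2 was at the low end and read -0.49, -0.64 and -1.45, with array 3 well below the others. Nkx2-2, a factor of the nervous system and pancreatic islets, averaged 0.38 ± 0.26, and Nkx2-9 averaged 0.26 ± 0.10. With arrays centred, and without array 1 or array 2, no gene of the family passed toward liver, and 1 did without array 3. The 2 probes of Nkx1-2 averaged 0.14 and -0.59, so that probes of 1 family gene differed by more than the means of the 4 homeobox members did.

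**Figure D4:**
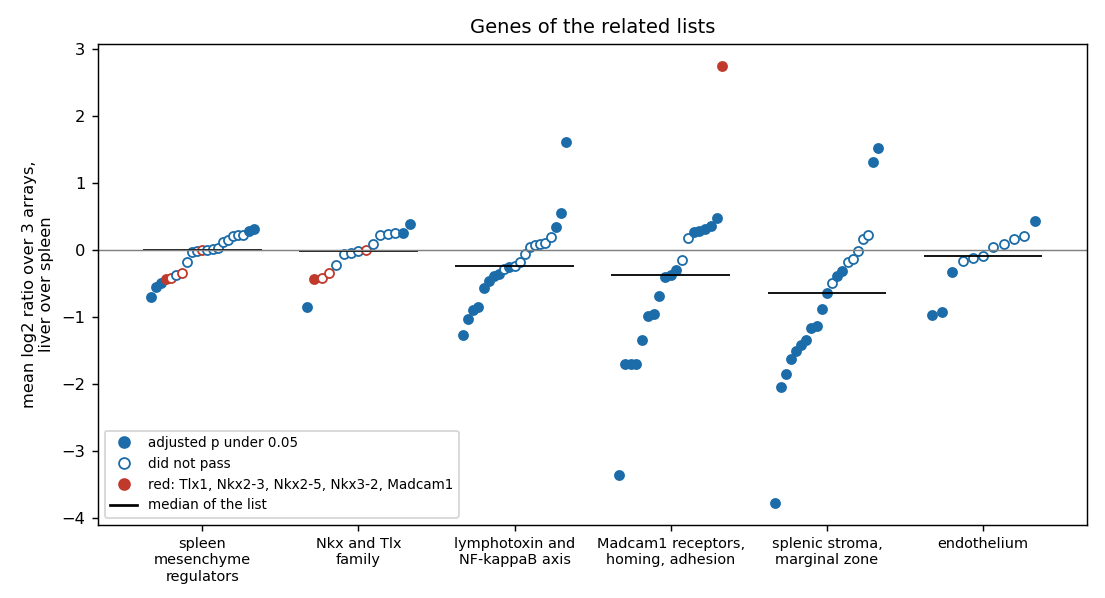
Mean log2 ratio over 3 arrays, liver over spleen (y axis), of each measured gene in 6 related lists (x axis), sorted within a list. Filled circles passed limma's test, open circles did not, red marks the 5 member genes and black lines mark list medians. The lists of spleen mesenchyme regulators and of the Nkx and Tlx family lie between -0.86 and 0.38. Madcam1 at 2.74 is the highest point of its list, whose other genes reach 0.47.

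The receptor chains for Madcam1 were higher in the spleen RNA, opposite to Madcam1 itself. Itga4 read -1.31, -1.36 and -1.38 on the 3 arrays as the mean of 2 probes, and its probes averaged -1.67 and -1.02. Itgb7 read -1.04, -1.37 and -0.54. Both were below 0 on all arrays, with means of -1.35 ± 0.04 and -0.98 ± 0.42 (limma adjusted p = 7.32e-05 and 0.00463). Itgb1, which pairs with Itga4 in the receptor for Vcam1, averaged -0.15 ± 0.05 and did not pass (limma adjusted p = 0.141). Its 2 probes lay on opposite sides of 0. In the probe fit 1 averaged -0.46 and passed (limma adjusted p = 0.00566). The other averaged 0.16 and did not pass (limma adjusted p = 0.183). Itgae, whose product pairs with that of Itgb7 in another integrin, averaged -0.40 ± 0.16 (limma adjusted p = 0.0146).

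Other adhesion genes differed from Madcam1 in direction or size. Whole-tissue RNA does not resolve which cells carried their transcripts. Vcam1, which shares the Itga4 chain as its receptor, read -3.45, -3.39 and -3.21, far toward spleen on every array. Icam2, a ligand of leukocyte integrins, averaged -1.71 ± 0.41. Glycam1, a mucin of high endothelial venules, averaged 0.35 ± 0.03 and E-selectin (Sele) 0.27 ± 0.10, both small differences toward liver. P-selectin (Selp) averaged 0.17 ± 0.10 and did not pass (limma adjusted p = 0.124). The homing receptor gene Cxcr5, which guides B cells to follicles, averaged -1.71 ± 0.09, and S1pr1, of lymphocyte egress, 0.47 ± 0.10 toward liver. The S1pr1 value is the mean of 2 probes that differed. In the probe fit 1 averaged 1.01 (limma adjusted p = 0.00318) and the other -0.08 (limma adjusted p = 0.63).

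Without Madcam1, 18 genes of the homing and adhesion list were measured, of which 11 passed toward spleen, 5 toward liver and 2 did not pass. The median was -0.39, and the highest gene mean was 0.47, that of S1pr1, whose probes differed. With Madcam1 included the count toward liver was 6, and it was 2 without array 1 and 3 without array 2 or array 3.

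**Figure D5:**
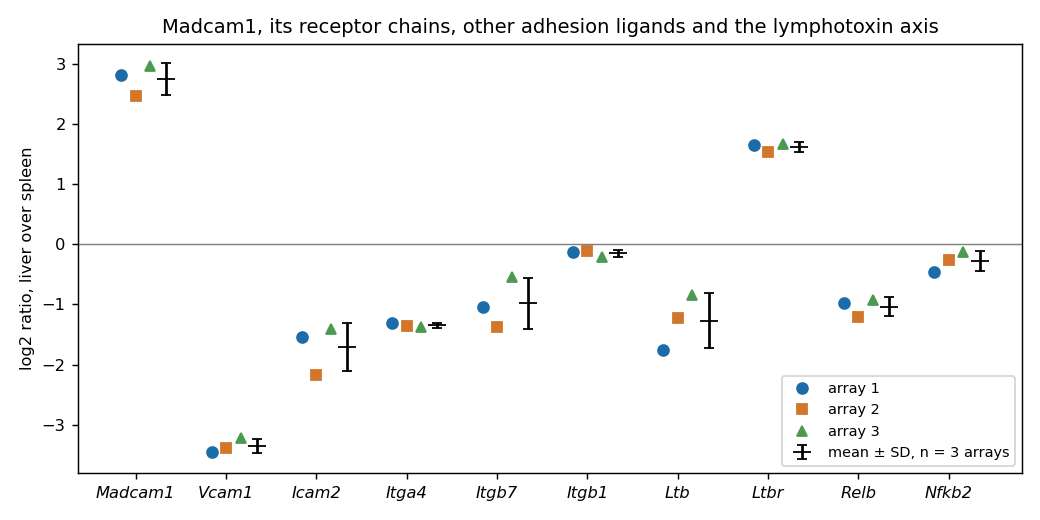
Log2 ratio of liver over spleen (y axis) on each array (coloured symbols) with the mean and SD (black) for Madcam1, the adhesion ligands Vcam1 and Icam2, the integrin chains Itga4, Itgb7 and Itgb1, and the lymphotoxin axis genes Ltb, Ltbr, Relb and Nfkb2. Madcam1 and Ltbr lie above 0 on all 3 arrays, and the other 8 genes lie below 0 on all 3. Itga4 and Itgb1 are each shown as the mean of 2 probes, and those of Itgb1 lay on opposite sides of 0.

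In the lymphotoxin and NF-kappaB axis, which induces Madcam1, the ligand and the receptor lay on opposite sides. Ltb, the membrane-bound lymphotoxin chain of lymphocytes, read -1.75, -1.23 and -0.83, with a mean of -1.27 ± 0.46. Its receptor gene Ltbr, expressed by stromal and epithelial cells, read 1.65, 1.52 and 1.66, with a mean of 1.61 ± 0.08. Both passed (limma adjusted p = 0.00228 and 4.72e-05). Lta, the soluble chain, averaged -0.07 ± 0.03 and Tnf -0.24 ± 0.11, and neither passed. The TNF receptor gene Tnfrsf1a averaged 0.55, with both of its probes toward liver, at 0.68 and 0.42.

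Among the signalling genes, Relb, the subunit of the alternative NF-kappaB pathway, averaged -1.03 ± 0.15 toward spleen. Its partner Nfkb2 averaged -0.28 ± 0.17 and did not pass (limma adjusted p = 0.052). Map3k14, the kinase that activates that pathway, averaged 0.07 ± 0.09 and Rela 0.19 ± 0.06, and neither passed. Tnfsf14, another ligand of Ltbr, averaged -0.90 ± 0.10. Of 21 measured genes of this axis, 9 passed toward spleen, 3 toward liver and 9 did not pass, with a median of -0.24.

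A list of splenic stroma and marginal zone genes held stromal, macrophage and B-cell genes. Of 21 measured, 13 passed toward spleen, 2 toward liver and 6 did not pass, with a median of -0.64. Coch averaged -3.77 ± 0.33, the marginal zone macrophage receptor Marco -2.05 ± 0.26 and the complement receptor Cr2 -1.85 ± 0.29. Cd209b, a lectin of marginal zone macrophages, averaged -1.13 ± 0.31 and Mfge8, made by follicular dendritic cells, -1.41 ± 0.27. Dcn and Lum, matrix proteoglycan genes, went toward liver at 1.52 ± 0.09 and 1.31 ± 0.27. The stromal genes Pdgfrb, Des, Pdpn and Cxcl12 averaged -0.01 ± 0.30, -0.18 ± 0.23, -0.50 ± 0.59 and -0.14 ± 0.18 and did not pass. Siglec1 and Ccl21b averaged 0.22 ± 0.26 and 0.16 ± 0.04 and did not pass either. That Ccl21b value is from the probe measured on every array. Its other probe read -3.11 and -2.61 on arrays 1 and 3. Other genes of stroma passed toward spleen. Pdgfra averaged -0.64 ± 0.20, Acta2 -0.88 ± 0.63, Ccl19 -1.35 ± 0.15, Cxcl13 -1.62 ± 0.20 and Il7 -0.32 ± 0.08. The 2 probes of Cxcl13 differed, at 0.02 and -3.26, as did those of Il7, at -0.01 and -0.63.

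Most general endothelial genes gave small ratios, 9 of 11 within 0.5 of 0, as was common among all genes. Of 11 measured, 3 passed toward spleen, 1 toward liver and 7 did not pass, with a median of -0.09. The endothelial mucin Emcn averaged 0.44 ± 0.13 toward liver. Toward spleen, Cldn5 averaged -0.98 ± 0.55, Plvap -0.93 ± 0.04 and Tek -0.34 ± 0.17. The 2 probes of Tek differed, at -0.01 and -0.66. The highest value among these 11 genes was 0.44, against 2.74 for Madcam1. The list held 19 genes, of which 13 had a probe. Stab1, Stab2, Lyve1 and Vwf were among those without one, so their ratios are unknown.

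Markers of other tissues were set beside the member genes. Of 10 measured gut epithelial markers, 2 passed toward liver and 2 toward spleen. The count toward spleen was 1 without array 1 and 0 without array 2 or array 3. Fabp2, also expressed in liver, averaged 3.31 ± 0.27 and Cdx2, a homeobox gene of intestine, 0.63 ± 0.23. Toward spleen, the intestinal cadherin gene Cdh17 averaged -0.37 ± 0.24 and the tight junction gene Cldn7 -0.25 ± 0.09. Muc2 and Vil1 averaged 0.23 ± 0.13 and 0.24 ± 0.14, and neither passed. Summarised by array, the gut list had medians of 0.26, 0.18 and 0.12. Cdx2 was the next highest gut marker after Fabp2. Whether RNA of gut or its lymphoid tissue moved with Madcam1 was not tested.

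Heart muscle markers were listed because Nkx2-5 is best known as a cardiac factor. Of 11 measured, 6 passed toward liver and 1 toward spleen, with a median of 0.38 and array medians of 0.34, 0.29 and 0.45. Mybpc3 averaged 1.99 ± 0.16, Myh6 0.68 ± 0.36 and Actc1 0.60 ± 0.16, while Tnni3 averaged -0.47 ± 0.09. Nkx2-5 itself averaged -0.35 ± 0.29 and did not pass. Pancreatic acinar markers, from an organ that borders the spleen, had a median of -0.31. Of 10 measured, 5 passed toward spleen and none toward liver, with a lowest mean of -0.59 for Pnliprp1. The 5 that did not pass were Ctrb1 at 0.04 ± 0.02, Cela2a at -0.07 ± 0.02, Reg1 at -0.09 ± 0.15, Ptf1a at -0.10 ± 0.17 and Cela3b at -0.40 ± 0.33. The 2 probes of Cela2a lay on opposite sides of 0, at 0.29 and -0.43. Without array 1, 2 of the 10 passed toward spleen, and without array 2, 3 did. Of 4 measured mesothelial markers, the keratins Krt8 and Krt18, which hepatocytes also express, averaged 3.70 ± 0.21 and 2.65 ± 0.23 toward liver, while Msln and Krt19 averaged -0.10 ± 0.04 and -0.02 ± 0.41 and did not pass. Whether heart, pancreatic or mesothelial RNA had a part in the ratios of the homeobox genes was not tested.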

How the data were processed

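The 3 arrays form 1 group, liver against spleen. The deposited table holds 1 log2 ratio per probe and array. Its scale, direction and normalization are not stated in the sources used here: the scale was read from the values, whose maximum of 6.64 is the log2 of 100. The medians without exact 0 were 0.02, 0.04 and 0.01 on arrays 1, 2 and 3. Exact 0 (1098 to 1414 probes per array) was taken as no measurement. Probes were named from the platform annotation. Of 16281 probes, 13738 had 1 symbol, 52 several and 2491 none. All 6 member probes matched RefSeq by Entrez number.

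Each probe measured on all 3 arrays entered a fit with limma 3.58.1 (R 4.3.3) of the ratio against 0 (lmFit, intercept only, eBayes, two-sided, Benjamini-Hochberg over all probes). A second fit used gene means. The test was checked on simulated data with independent noise on each array. That check could not show a dye effect or an error shared by the 3 arrays. An exact sign-flip test over 3 arrays cannot go below p = 0.25. The precision is limited by the number of arrays. The members and lists were chosen with earlier results of these data known. Genes named from each list are up to 3 with the largest change past the test in each direction, plus the receptor, lymphotoxin, NF-kappaB and homeobox genes, the tissue genes, and probes most like Madcam1. The neighbouring genes were taken by position. Pdgfrb, Des, Pdpn, Cxcl12, Pdgfra, Acta2, Ccl19, Cxcl13, Il7, Mfge8, Cd209b, Muc2, Vil1, Msln, Krt19, Sele and Selp were added after their values were seen. The same holds for Siglec1, Ccl21b, Ctrb1, Reg1, Ptf1a, Cela3b and Cela2a. The promoter patterns were also added after values were seen. Alternatives covered centring, scaling, exact 0, missing values, the variance model, the probes tested, a 2-fold limit and each array left out.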

Additional observations from a re-analysis of the deposited data

How the results depend on the processing

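Madcam1 stayed toward liver and past the test under all 10 alternatives to the probe fit (2.64 to 2.89, limma adjusted p = 3.35e-05 to 0.00363), which include a test against a 2-fold limit, and under all 5 to the gene fit. Nkx2-3 and Nkx2-5 stayed toward spleen without passing under all of these. Nkx3-2 stayed toward spleen but passed in 2 of the 10, with arrays centred and with named probes only. It did not pass with arrays scaled alike (-0.44, limma adjusted p = 0.0511), and, at -0.43, with exact 0 kept (limma adjusted p = 0.141), with probes measured on at least 2 arrays (limma adjusted p = 0.0523), with robust variances (limma adjusted p = 0.0517) or against a 2-fold limit (limma adjusted p = 1). In each of these the count of member probes past the test toward spleen was 0 in place of 1. Leaving out 1 array at a time moved Nkx3-2 between -0.54 and -0.24 in both fits. The count was 0 each time in the probe fit, and in the gene fit Nkx3-2 did not pass without array 1 or array 2. Tlx1 ranged from -0.062 to 0.071 in both fits, the sign changing without array 1. The pairs of probes past the test numbered 432 to 516 with 1 array left out, against 735. Each ratio already sets the 2 RNAs against each other within an array, and the arrays form 1 group, so no further pairing was possible. No intensity over background was used, so ratios near 0 give no statement on whether a gene was detected.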
